A study of Homo sapiens with 20 samples.

Results

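The sites at which SW872 cells expressing YAP5SA and SW872 cells carrying an empty vector (EV) differed in open chromatin were taken from ATAC-seq peak lists, of which there was 1 list per vector. A gained site was a YAP5SA peak with a summit −log10 p of 6 or more and no EV peak within 1 kb. A lost site was an EV peak of the same strength with no YAP5SA peak within 1 kb. The rule found 7282 gained sites, which were 10.5% of the 69384 YAP5SA peaks of that strength and 3.15% of all 230886 YAP5SA peaks. It found 309 lost sites, or 0.660% of the 46845 EV peaks of that strength and 0.181% of all 171102 EV peaks. Peaks that overlapped by 1 bp or more were called shared, which held for 120267 YAP5SA peaks and 121702 EV peaks. The 7 lists of the series held 1407450 peaks in all.

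SW872 is a human liposarcoma cell line, and all cells were pooled stable lines made by retroviral transduction with pBabeNeo and selected with G418. Both vectors were represented by 3 libraries from separate transductions, 1 of the EV libraries being titled a redo. YAP5SA is a Flag-tagged YAP in which alanine replaces the serines that the LATS kinases phosphorylate, and EV cells carried pBabeNeo with no insert. TAZ4SA, the matching mutant of TAZ, the fusion proteins YAP-TFE3 and TAZ-CAMTA1 of epithelioid hemangioendothelioma, and full-length CAMTA1 and TFE3 were expressed in the same way and served as the other 5 lists. The libraries of the YAP-TFE3 list were titled Yap5SA-TFE3, a name that the paper does not use for this construct.

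YAP and its paralog TAZ are the transcriptional coactivators at the end of the Hippo pathway. When the kinases of this pathway are active, YAP is phosphorylated, held in the cytoplasm and degraded, whereas unphosphorylated YAP enters the nucleus and reaches DNA mainly through TEAD transcription factors, often at enhancers far from promoters. ATAC-seq inserts sequencing adapters into accessible DNA with the Tn5 transposase, so that a peak marks a stretch of open chromatin. The assay shares only its name with the ATAC histone acetyltransferase complex.

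Each peak had an area under the curve, which is the peak caller's statistic summed along the peak, and a −log10 p at its summit. The lists held no values for single libraries, so that neither a replicate error nor a test between vectors was possible. Wilson 95% intervals are given for shares of peaks, and they cover counting error only, since neighbouring peaks are not independent.

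Gained sites outnumbered lost sites by a ratio of 23.6 (95% interval 21.0 to 26.4). The ratio depended on the rule far more than this counting interval shows, being 8.46 with a minimum summit of 5, 177 with a minimum of 8 and 13.0 when the YAP5SA list was cut to the length of the EV list. The intervals of the shares were 10.3 to 10.7% of strong YAP5SA peaks gained and 0.590 to 0.737% of strong EV peaks lost, strong being a summit −log10 p of 6 or more. Most of the strong peaks were shared, which was the case for 86.1% of those of YAP5SA and 98.9% of those of EV. A further 2343 YAP5SA peaks and 185 EV peaks of that strength overlapped no peak of the other list but lay within 1 kb of one. The other lists were put through the same rule against the same EV list. YAP-TFE3 had 6127 gained and 77 lost sites, CAMTA1 had 3622 and 28, and TAZ-CAMTA1 had 3098 and 49. TAZ4SA had 1870 gained and 2123 lost sites, and TFE3 had 130 and 203. YAP5SA therefore had the largest number and the largest share of gained sites of the 6 lists, the next share being 7.61% for YAP-TFE3, and its share of lost sites was above those of YAP-TFE3 (0.164%), TAZ-CAMTA1 (0.105%), CAMTA1 (0.0598%) and TFE3 (0.433%) and below that of TAZ4SA (4.53%). The number of peaks with a summit −log10 p of 6 or more differed between the lists, from 44497 for TAZ4SA to 80465 for YAP-TFE3. TAZ4SA and TFE3 (47513) had the fewest such peaks and also the fewest gained sites. YAP-TFE3, TAZ-CAMTA1 and CAMTA1 had more such peaks than YAP5SA but fewer gained sites. The part of these differences in the numbers of gained sites was not tested.

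**Figure D1:**
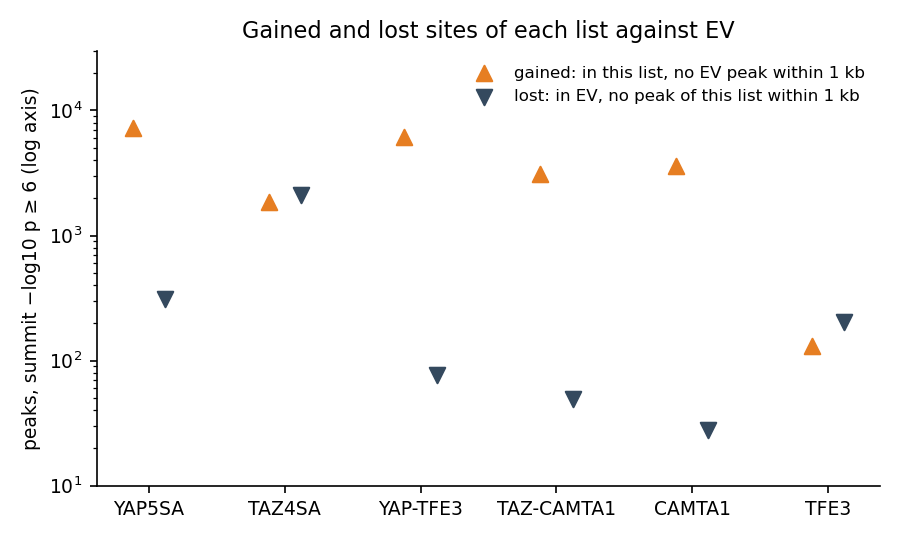
Numbers of gained sites (upward triangles) and lost sites (downward triangles) of each list against the EV list, on a log axis. YAP5SA had 7282 gained and 309 lost sites; for TAZ4SA and TFE3 the lost sites were the more numerous.

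The values that set the rule are given here as a description. The summit −log10 p of gained sites had a median of 7.05 and a highest value of 17.5, and that of lost sites a median of 6.39 and a highest value of 9.60. The weakest gained site had a summit of 6.0008, and the strongest YAP5SA peak that the minimum kept out, among those with no EV peak within 1 kb, had 5.997. Between 6 and 6.5 there were 2054 gained and 171 lost sites, and 3047 and 404 otherwise eligible peaks lay between 5.5 and 6. At the other border of the rule, the gained sites nearest to an EV peak were 1003 bp away from it, and 946 gained sites lay within 2 kb.

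Gained sites were smaller than shared peaks that passed the same minimum. The area under the curve of gained sites had a median of 557 (quartiles 373 and 889), against 376 (259 and 571) for lost sites and 1361 for shared YAP5SA peaks with a summit of 6 or more. Their width had a median of 376 bp (246 to 559 bp), against 343 bp (181 to 521 bp) for lost sites and 748 bp for strong shared YAP5SA peaks. Thus 31.4% of gained sites and 27.5% of lost sites reached 500 bp, compared with 66.6% of the strong shared YAP5SA peaks. A width of 2000 bp was reached by 3 gained sites, by no lost site and by 5008 strong shared YAP5SA peaks. The mean area per bp was closer between the sets, with medians of 1.62 for gained sites, 1.31 for lost sites and 2.10 for strong shared YAP5SA peaks.

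Gained sites were also narrower than shared peaks within each class of summit strength, although summits were not matched inside a class and the last class had no upper bound. The rule enters this difference, since a wider peak has more chance to overlap an EV peak or lie within 1 kb of one. How much of the difference that makes was not tested. Among YAP5SA peaks with a summit from 6 to 7, gained sites had a median width of 292 bp and shared peaks 335 bp. From 8 to 10 the widths were 533.5 and 683 bp, and at 10 or more they were 856 and 1375 bp. The share of YAP5SA peaks that were gained fell along the same classes, from 19.2% (3531 of 18367) between 6 and 7 to 15.4% between 7 and 8, 9.93% between 8 and 10 and 1.88% (455 of 24253) at 10 or more. For EV the lost share was 1.91% (254 of 13292), 0.529% and 0.108% in the first 3 classes, and none of 15047 EV peaks with a summit of 10 or more was lost, a count that allows a share of up to 0.0199%. The strongest sites of the empty-vector cells thus all had a YAP5SA peak within 1 kb.

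The 6 gained sites of the largest area were at chr8:118822805-118824449, chr5:10691760-10693165, chr7:48466114-48467261, chr15:97310709-97312247, chr1:59593522-59595124 and chr21:17935551-17936866, in the hg19 coordinates of the lists. The chromosome 8 site had an area of 6639 and lay 25106 bp from the nearest EV peak. It was overlapped by a TAZ4SA peak with an area of 3967 and by a CAMTA1 peak with an area of 53.0, and the YAP-TFE3, TAZ-CAMTA1 and TFE3 lists had no peak closer than 2871 bp. The chromosome 7 site had the highest summit −log10 p of all gained sites, 17.5, and an area of 5572, against 3210 in TAZ4SA, 1751 in CAMTA1, 381 in YAP-TFE3 and 222 in TFE3. At the chromosome 21 site the areas were 5229 in YAP5SA, 2514 in TAZ4SA and 71.7 or less in the fusion proteins and CAMTA1. All 6 sites thus had a peak in both hyperactive mutants, with TAZ4SA the second largest area at each.

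The YAP5SA value stood first at most gained sites that another list also held. A TAZ4SA peak overlapped 4533 gained sites, and it had the higher summit at 202 of them (4.46%). A YAP-TFE3 peak was the stronger at 680 of 4305 sites (15.8%), a CAMTA1 peak at 458 of 4810 (9.52%), a TAZ-CAMTA1 peak at 274 of 3785 (7.24%) and a TFE3 peak at 7 of 2769 (0.253%). At strong shared YAP5SA peaks the other peak was the stronger at 78.3% for YAP-TFE3, 72.4% for TAZ-CAMTA1, 70.6% for CAMTA1, 12.8% for TFE3 and 7.63% for TAZ4SA. TAZ4SA peaks were thus mostly below those of YAP5SA at both kinds of site, whereas the fusion proteins and CAMTA1 were mostly above YAP5SA at shared peaks and below it at gained sites. The median summit −log10 p of the overlapping peaks was 5.23 in TAZ4SA, 5.29 in YAP-TFE3, 5.14 in CAMTA1, 4.73 in TAZ-CAMTA1 and 4.34 in TFE3, in each case below the minimum of 6 that the gained sites had to pass. This order is partly set by the rule, which asked for a strong summit in YAP5SA alone.

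Of the gained sites, 66.1% (65.0 to 67.1%) were overlapped by a CAMTA1 peak, 62.2% (61.1 to 63.4%) by a TAZ4SA peak, 59.1% (58.0 to 60.2%) by a YAP-TFE3 peak, 52.0% (50.8 to 53.1%) by a TAZ-CAMTA1 peak and 38.0% (36.9 to 39.1%) by a TFE3 peak. For strong shared YAP5SA peaks the same shares ran from 90.7% for TAZ4SA to 99.5% for CAMTA1. TAZ4SA was therefore the list in which shared peaks were found least often, but not the list in which gained sites were found least often. All of these counts rest on the same EV list. The order of TAZ4SA and YAP-TFE3 turned when the minimum summit was lowered to 5 (45.0% and 55.7%) or when only overlapping EV peaks were excluded (60.7% and 63.2%).

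The share of gained sites with a TAZ4SA peak rose with summit strength more than that of any other list. It was 47.7% for summits from 6 to 7, 65.9% from 7 to 8, 81.7% from 8 to 10 and 97.1% at 10 or more. Over the same classes YAP-TFE3 went from 56.2% to 72.1%, TAZ-CAMTA1 from 50.4% to 62.9%, CAMTA1 from 60.5% to 87.3% and TFE3 from 33.7% to 57.1%. TAZ4SA thus ranked behind CAMTA1, YAP-TFE3 and TAZ-CAMTA1 among the weakest gained sites and ahead of all other lists among the strongest. At shared YAP5SA peaks the TAZ4SA share also rose, from 72.3% to 99.9%, while those of YAP-TFE3, TAZ-CAMTA1 and CAMTA1 were 98.2% or more in every class. The TAZ4SA list was also the shortest, with 152702 peaks, of which 44497 had a summit of 6 or more. The part of that in the rise of its share was not tested.

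**Figure D2:**
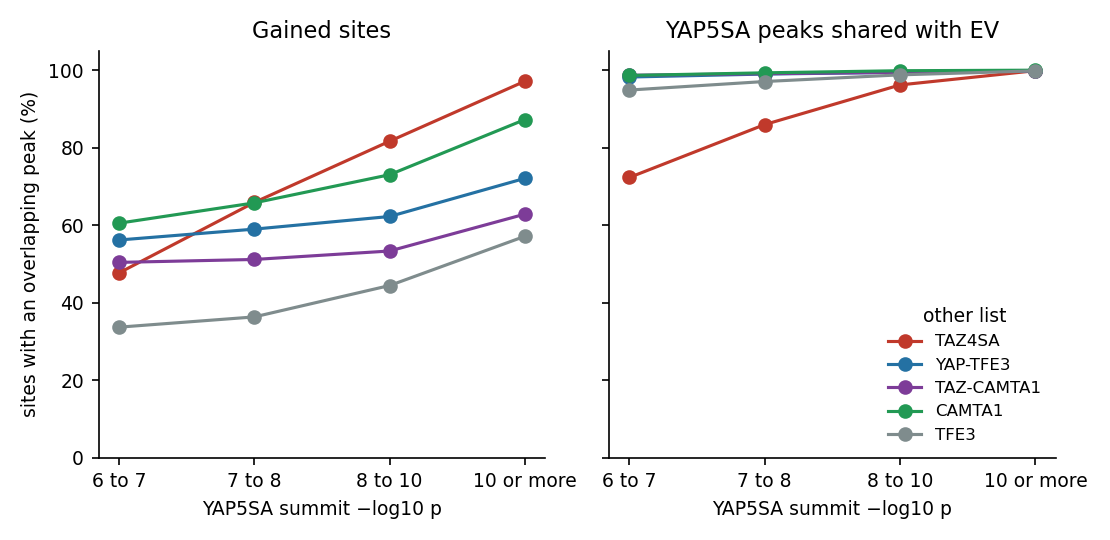
Share of gained sites (left) and of YAP5SA peaks shared with EV (right) that a peak of each other list overlapped, in 4 classes of YAP5SA summit −log10 p. At gained sites TAZ4SA went from 47.7% to 97.1%; at shared peaks the lists other than TAZ4SA stayed at 94.9% or more in every class.

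Gained sites were spread over many combinations of the other lists. All 5 lists had a peak at 1615 gained sites (22.2%), and none had one at 899 (12.3%), compared with 88.9% and 0.0301% of strong shared YAP5SA peaks. By the number of other lists, the sites in none had the lowest median summit and area, 6.57 and 396, and those in all 5 lists the highest, 7.58 and 718. Among sites that a single other list held, 826 were held by TAZ4SA (11.3% of all gained sites), 197 by CAMTA1, 128 by TAZ-CAMTA1, 116 by YAP-TFE3 and 8 by TFE3. The 826 sites had a median summit of 7.19 and a median area of 616. Sites with TAZ4SA had larger areas (median 681, width 430 bp) than sites without it (424, 297 bp). Both fusion proteins had a peak at 3215 gained sites (44.2%) and neither had one at 2407 (33.1%), of which 1285 had a TAZ4SA peak.

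Examples of each kind were taken by area. Of the sites in no other list, the largest were at chr22:27077232-27077886 with an area of 2157, at chr11:75176810-75177803 with 2138 and at chr8:104320193-104321253 with 1812. The chromosome 8 example was the most separate of them, its nearest peak in the other 5 lists being 7757 bp away. Of the sites with TAZ4SA alone, the largest was at chr1:112320785-112322093, with areas of 4383 in YAP5SA and 1413 in TAZ4SA. It was followed by chr18:76610908-76612080 with 4043 and 3338 and by chr2:139509704-139510714 with 3570 and 606. The third largest site found in all 5 lists, after those on chromosomes 15 and 1 given above, was at chr9:2809481-2811042, where the area was 5017 in YAP5SA, 3723 in TAZ4SA, 614 in CAMTA1 and 84.8 or less in the remaining lists.

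Lost sites had a different profile. A TAZ4SA peak overlapped 32.7% of them (101 sites, 27.7 to 38.1%), whereas TAZ-CAMTA1 had a peak at 98.1% (303 sites), CAMTA1 at 96.1%, TFE3 at 93.9% and YAP-TFE3 at 93.2% (288 sites). The combination of these 4 lists without TAZ4SA accounted for 184 of the 309 sites (59.5%), and 91 sites (29.4%) were in all 5. Strong shared EV peaks had a TAZ4SA peak in 93.5% of cases, and in 82.3% of cases when their summit lay between 6 and 7, where lost sites had one in 31.1%. Sites open in empty-vector cells that had no YAP5SA peak were thus for the most part also without a TAZ4SA peak. Most had a peak of some strength in the lists of the fusion proteins, CAMTA1 and TFE3. A peak with a summit of 6 or more was less frequent, at 79.9% of lost sites in TAZ-CAMTA1 and 53.4% in YAP-TFE3. It was found at 48.9% in CAMTA1, 23.9% in TFE3 and 2.91% in TAZ4SA. The TAZ4SA list, with 152702 peaks, had the fewest strong peaks and the most lost sites of the lists. The part of that in its share of 32.7% was not tested.

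**Figure D3:**
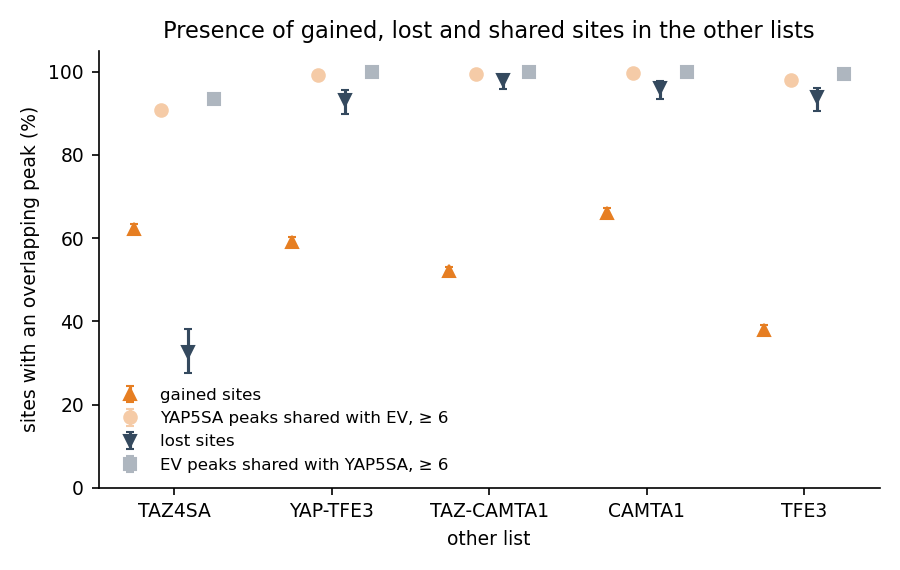
Share of gained sites, of lost sites and of shared peaks with a summit −log10 p of 6 or more that were overlapped by a peak of each other list, with Wilson 95% intervals. Lost sites were at 32.7% in TAZ4SA and at 93.2% or more in the other 4 lists; gained sites were between 38.0% and 66.1%.

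The peaks of the other lists exceeded the EV summit less often at lost sites than at strong shared EV peaks. The TAZ-CAMTA1 peaks at lost sites had a median summit −log10 p of 7.43, and they were stronger than the EV peak at 219 of 303 sites (72.3%). A YAP-TFE3 peak was the stronger at 128 of 288 sites (44.4%), a CAMTA1 peak at 114 of 297 (38.4%), a TFE3 peak at 27 of 290 (9.31%) and a TAZ4SA peak at 1 of 101 (0.990%). At strong shared EV peaks the TAZ-CAMTA1 peak was the stronger in 94.9% of cases, that of YAP-TFE3 in 94.0%, that of CAMTA1 in 91.1%, that of TFE3 in 31.9% and that of TAZ4SA in 25.9%. These shares are partly set by the rule, which asked for a strong summit in EV alone. The sets also differed in EV summit, with medians of 6.39 for lost sites and 8.33 for strong shared EV peaks. The 2 fusion proteins, and likewise CAMTA1 and TFE3, had peaks at most of the lost sites, unlike TAZ4SA.

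The largest lost site was at chrX:54800634-54801496. Its area was 2051 in EV, 3649 in TAZ-CAMTA1, 2144 in CAMTA1, 1469 in TFE3, 1325 in YAP-TFE3 and 72.7 in TAZ4SA, and the nearest YAP5SA peak was 32507 bp away. It was followed by chr5:82044285-82045733 with an EV area of 1941, chr18:43036207-43036972 with 1499, chr20:56852586-56853710 with 1387, chr11:17943160-17944319 with 1321 and chr20:38403566-38404262 with 1301. On chromosome 18 the area was 1943 in TAZ-CAMTA1 and 63.5 in YAP-TFE3, and TAZ4SA had no peak within 43365 bp of the site. All 6 sites had peaks in both fusion proteins, CAMTA1 and TFE3, and where TAZ4SA had a peak, at 4 of the 6, its area was 72.7 or less.

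Gained sites lay farther from the reference peaks than lost sites did. The distance from a gained site to the nearest EV peak had a median of 7578.5 bp (quartiles 3306.5 and 18666 bp), and 3051 sites (41.9%) were more than 10 kb and 635 (8.72%) more than 50 kb away. For lost sites the median distance to a YAP5SA peak was 4302 bp, and 1 site was more than 50 kb away. The YAP5SA list was the longer of the pair. Between 1 and 50 kb to each side, gained sites had a median of 7 EV peaks and 11 YAP5SA peaks, against 11 and 15 around strong shared YAP5SA peaks and 10 and 11 around lost sites. The TFE3 list, used as a further reference, had medians of 7, 11 and 9 peaks around these 3 sets. Gained sites thus had fewer peaks around them than strong shared peaks in each of the lists counted, and fewer than lost sites in the EV and TFE3 lists but not in the YAP5SA list. The rule enters these counts. Gained sites had no EV peak and lost sites no YAP5SA peak within 1 kb, whereas shared peaks overlapped a peak of the other list. How much of the difference that makes was not tested.

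The profile of gained sites changed with their distance from EV peaks. Among the 946 sites between 1 and 2 kb from an EV peak, 60.4% (57.2 to 63.4%) had a TAZ4SA peak and 64.0% (60.8 to 67.0%) a TAZ-CAMTA1 peak. Among the 635 sites more than 50 kb away, 72.6% (69.0 to 75.9%) had a TAZ4SA peak and 30.4% (26.9 to 34.1%) a TAZ-CAMTA1 peak. CAMTA1 went from 72.2% to 55.1%, YAP-TFE3 from 64.5% to 52.3% and TFE3 from 44.2% to 27.2%. TAZ4SA was the only 1 of the 5 lists whose share was higher at the distant sites. The median summit of the gained sites was 6.93 in the nearest class and 7.12 in the farthest. The part of summit strength in these shares was not tested. The most distant gained site of all, chosen after its values were seen, was at chr4:28289389-28289967, 1.24 Mb from the nearest EV peak. It had an area of 1052, was overlapped by a TAZ4SA peak and had no peak of the remaining 4 lists within 602980 bp.

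Gained sites were closer together than those of YAP-TFE3 and farther apart than shared peaks. The gap between neighbouring gained sites had a median of 159673 bp, 16.2% of the sites had another within 1 kb and 48.7% (3546 sites) had one within 50 kb. Those of YAP-TFE3, a set of similar size, had a median gap of 204363 bp, and 8.63% had another within 1 kb and 38.7% within 50 kb. The 1870 gained sites of TAZ4SA had a median gap of 747972 bp. Of these, 11.9% had another within 1 kb, a larger share than for YAP-TFE3, and 28.7% had one within 50 kb. Within 1 kb the shares were 5.44% for CAMTA1 and 4.36% for TAZ-CAMTA1. Strong shared YAP5SA peaks, which are far more numerous, had a median gap of 12237 bp, with another within 1 kb for 31.5% and within 50 kb for 93.1%. Lost sites were far fewer, with a median gap of 4926390 bp and another within 50 kb for 20 sites (6.47%). When gained sites within 1 kb of each other were joined, 6667 runs were left, of which 46 held 3 or more sites. Joined at 50 kb they formed 5147 runs, of which 453 held 3 or more and the largest 13, while no run of lost sites held more than 2. These figures depend on how many sites a set has, and the part of that in them was not tested.

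The densest stretch of gained sites was at chr18:76576096-76625503, where 12 of them lay within 49408 bp. The YAP5SA list had 31 peaks in this stretch, 15 of them with a summit of 6 or more, with a largest area of 4510. TAZ4SA had 28 peaks there, with a largest area of 3338, and EV had 9, with a largest area of 86.9. CAMTA1 had 14 peaks up to an area of 554, YAP-TFE3 had 15 up to 844, TFE3 had 5 up to 71.9 and TAZ-CAMTA1 had none. A TAZ4SA peak overlapped 8 of the 12 gained sites. The largest YAP5SA peak of the stretch, 3298 bp wide, overlapped small EV peaks and so was not counted as gained. The next densest stretches held 7 sites each, at chr12:127867527-127901623, chr2:112217896-112262535 and chr5:36619066-36668625. On chromosomes 12 and 5, TAZ4SA overlapped 6 of the 7 sites, and on chromosome 2 it overlapped 2 of 7, where YAP-TFE3 and CAMTA1 overlapped 6 of 7 each. Lost sites came at most in pairs, for example at chr11:43971783-43973117, where both sites had a peak in each of the fusion proteins, CAMTA1 and TFE3 and none in TAZ4SA.

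**Figure D4:**
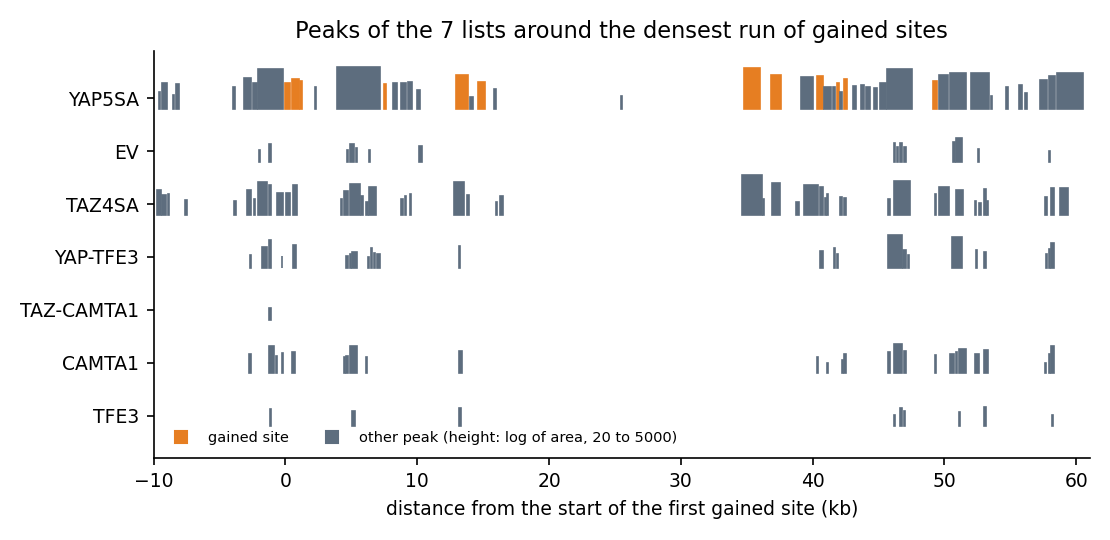
Peaks of the 7 lists along the chromosome 18 stretch with 12 gained sites and 10 kb to each side, by distance in kb from the start of the first gained site; the height of each block grows with the log of its area, and gained sites are orange. Within the stretch itself YAP5SA and TAZ4SA had 31 and 28 peaks, while EV had 9 small ones and TAZ-CAMTA1 none, its only peak shown lying before the start.

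Gained sites were unevenly spread over the chromosomes. Per 1000 YAP5SA peaks with a summit of 6 or more, there were 154 gained sites (140 to 170) on chromosome 4, 144 (125 to 164) on chromosome 18 and 131 (121 to 142) on chromosome 3. The rates were lowest on chromosome 19, with 56.1 (47.6 to 66.0), and on chromosome 20, with 72.8 (63.6 to 83.1). Chromosomes 4 and 18 are poor in genes and chromosome 19 is the densest in genes, but the other chromosomes were not compared in this way. No annotation was used, so a link between the rates and gene density over all chromosomes was not tested. By count, chromosome 1 held the most gained sites (684) and chromosome 21 the fewest (92). The gained sites of TAZ4SA numbered 68.4 per 1000 on chromosome 4, 81.5 on chromosome 18 and 8.48 on chromosome 19. For CAMTA1 the 3 chromosomes had 63.7, 54.1 and 33.8, for YAP-TFE3 103, 91.2 and 73.6, for TFE3, with 130 gained sites in all, 4.11, 3.77 and 2.56, and for TAZ-CAMTA1 45.4, 51.8 and 54.7. By these rates chromosome 19 was below chromosomes 4 and 18 in every list except TAZ-CAMTA1. The rates of the other 5 lists have no intervals, and those of TFE3 rest on few sites. Lost sites were too few for most chromosomes to be told apart: per 1000 strong EV peaks they ranged from 2.39 (1.02 to 5.58) on chromosome 17 to 12.4 (7.24 to 21.0) on chromosome 13, and by count chromosome 5 held the most, with 33.

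**Figure D5:**
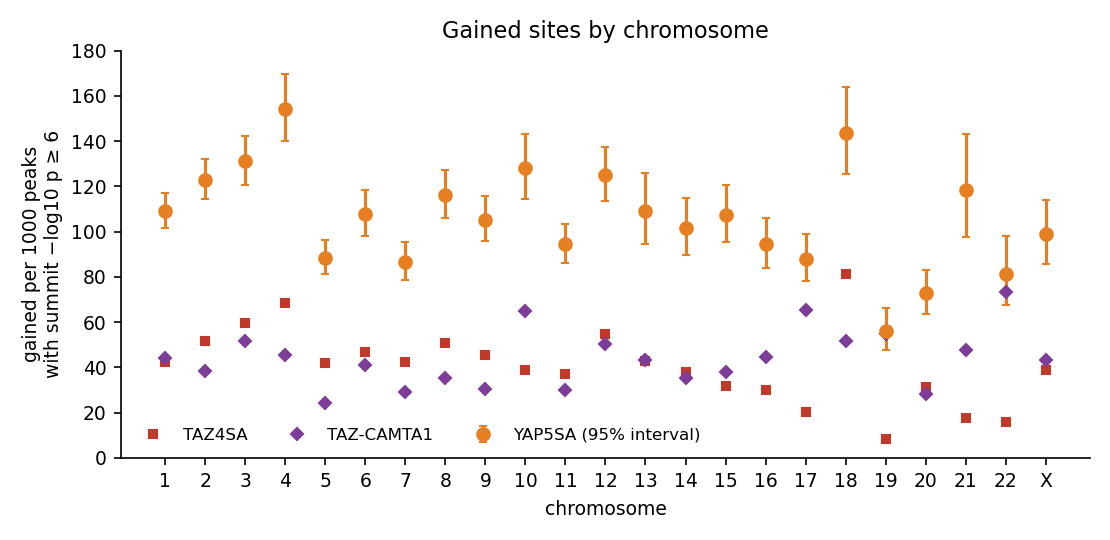
Gained sites per 1000 peaks with a summit −log10 p of 6 or more, by chromosome, for YAP5SA (circles, with Wilson 95% intervals), TAZ4SA (squares) and TAZ-CAMTA1 (diamonds). YAP5SA was highest on chromosome 4 (154) and lowest on chromosome 19 (56.1), where TAZ4SA had 8.48.

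Shared peaks were also stronger in the YAP5SA list. Among 42408 pairs of a single YAP5SA and a single EV peak that overlapped each other, with a summit of 6 or more in at least 1 of them, the area was larger in YAP5SA by a median of 0.50 on the log2 scale (quartiles 0.06 and 1.55). The summit was higher in YAP5SA at 78.4% of these pairs. The area was at least 2-fold larger in YAP5SA at 15032 pairs (35.4%) and at least 2-fold larger in EV at 2364 (5.57%), and the difference was 4-fold or more at 8036 and 904 pairs. Areas were used as deposited, with no scaling between lists, so that a ratio of areas is not a fold change in reads, and the depth of the libraries is unknown. A general difference in signal between the lists and a difference at particular sites therefore cannot be told apart from these values.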

How the data were processed

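ATAC-seq was done on SW872 cells in 20 libraries, 3 for each vector and 2 for TFE3. According to the methods, reads were trimmed with NGmerge, aligned to hg19 with BWA-MEM and passed to Genrich for peak calling with blacklisted regions removed. The submitters' processing notes instead name Bowtie 0.12.2 and mm8, a mouse build, although the lists reach position 249240671 of chromosome 1, which is past the end of that chromosome in hg38. The methods describe peak calling by replicate, but the authors deposited 1 list per vector, and how replicates were combined is not given in the sources used here. In each list the deposited area under the curve is a signal with a lowest value of 20.0, and the authors gave the summit p-value as −log10. The deposited score column and the q-value column were not used.

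Peaks were taken as deposited, with no filter beyond the rule, and the distance between peaks was the number of bases between their ends; positions are printed counting from 1. The code was tested on simulated intervals against bedtools 2.31.1. Shares have Wilson intervals (95%), and the limit of a count of 0 was 3 counts. No test was run, since the lists hold no values per library. Alternatives were other summit minimums, distances and overlaps, equal numbers of candidate peaks, lists cut to equal length and autosomes only. Joining sites within 1 kb and the classes of summit strength were chosen after seeing the data. The members and lists were chosen with earlier results of these data known. Named sites were the 6 gained and 6 lost sites of largest area, the 3 largest gained sites in none, in all and in TAZ4SA alone of the other 5 lists, and the densest stretches within 50 kb. An hg19 genome and annotation were not used here, so no sequence, motif or gene is given.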

Additional observations from a re-analysis of the deposited data

How the results depend on the processing

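Gained sites outnumbered lost sites under every alternative tried. With a minimum summit of 5, there were 15279 gained and 1805 lost sites (ratio 8.46). The shares with TAZ4SA and YAP-TFE3 were then 45.0% and 55.7% of gained and 27.1% and 83.8% of lost sites. With a minimum of 8 there were 1949 and 11 sites (ratio 177), with 85.3% and 64.5% of gained and 45.5% and 100% of lost sites. When only overlapping peaks were excluded, lost sites numbered 494 (ratio 19.5), with 60.7% and 63.2% of gained sites. With 5 kb, there were 4560 gained and 134 lost sites (ratio 34.0), with 63.4% and 56.8% of gained sites. With only the 30000 strongest peaks of each list as candidates, there were 890 gained and 26 lost sites (ratio 34.2). The list they were set against was not shortened. The shares with TAZ4SA and YAP-TFE3 were then 92.9% and 67.1% of gained and 50% and 100% of lost sites. Cutting YAP5SA to the length of the EV list, which leaves gained sites as they are, gave 562 lost sites (ratio 13.0), 42.0% of them with TAZ4SA. Joining sites within 1 kb, chosen after seeing the data, gave 64.0% and 61.0% of gained sites. The share of YAP5SA peaks shared with EV was 52.1%, and 30.9% with a reciprocal overlap of 50% or 58.5% when each peak was replaced by its summit and 250 bp on either side. Of 58 such values, 37 were classed as moved and 21 as not. Of 58 further shares, medians and spacings, 36 were classed as moved and 22 as not. The 21 include the number of gained sites when only overlapping peaks were excluded, 9625 against 7282. They also include values of gained sites that cutting YAP5SA to the length of the EV list could not change. The tally is therefore no measure of stability.

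No paired analysis was possible because single libraries have no values in these files; leaving out replicates was not run for the same reason, and motif and gene results were not run without an hg19 genome. The spread between replicates and the depth are unknown, so a site counted as gained or lost can be a peak near the calling limit of the other list.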
